A study of Homo sapiens with 32 samples.

Results

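The 37 genes described here encode the Gs-coupled receptors named in a fixed list of symbols, and their rows were found in the count table by matching Ensembl identifiers to those symbols. All 37 were present with 4 sgRNAs each, which gave 37 of 18638 genes and 148 of 74552 sgRNAs against genes. By ligand they fall into 8 classes: orphan receptors with constitutive activity (*GPR3*, *GPR6*, *GPR12*), adenosine receptors (*ADORA2A*, *ADORA2B*), prostanoid receptors (*PTGER2*, *PTGER4*, *PTGIR*, *PTGDR*), amine receptors (*ADRB1*, *ADRB3*, *DRD1*, *DRD5*, *HTR4*, *HTR6*, *HTR7*, *HRH2*), class B peptide hormone receptors (*VIPR1*, *VIPR2*, *ADCYAP1R1*, *GLP1R*, *GLP2R*, *GIPR*, *GCGR*, *SCTR*, *CRHR1*, *CALCRL*, *PTH1R*), glycoprotein hormone receptors (*TSHR*, *LHCGR*, *FSHR*), melanocortin and vasopressin receptors (*MC1R*, *MC4R*, *AVPR2*), and receptors for protons or bile acids (*GPR65*, *GPR4*, *GPBAR1*).

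A Gs-coupled receptor that is active loads the G protein subunit encoded by *GNAS* with GTP, and this subunit stimulates adenylyl cyclases to make cAMP. cAMP binds the regulatory subunits of protein kinase A (PKA) and frees the catalytic subunits. G protein-coupled receptor kinases and β-arrestins end the signal by phosphorylating the active receptor and uncoupling it from its G protein. In the intestinal epithelium, receptors for adenosine, vasoactive intestinal peptide and prostaglandin E are known for driving fluid secretion through cAMP, and GPR3, GPR6 and GPR12 are known for raising cAMP without an added ligand.

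The receptors were targeted by Cas9, together with the other genes of a library, in RKO cells, a line established from a human colon carcinoma. The line stably carried lentiviral transgenes for Cas9 and for Kinprola_PKA, a recorder built on a split HaloTag that is labelled by the fluorescent substrate CPY-CA while PKA is active and that also holds EGFP. After lentiviral transduction with the HD CRISPR sublibrary A at a low multiplicity and puromycin selection, cells were labelled for 30 min on day 6 and sorted by the ratio of CPY-CA to EGFP into a high (around 25%), a low (around 25%) and a medium population (around 50%, called basal in the labels). A control of day 0 (T0) belonged to each of the 2 screens, which the labels number replicates 2 and 3; how it was prepared is not described in the sources used here. The sorted groups shared the line, both transgenes, the library and the selection, and all groups are labelled as wild type in genotype. The cells were pooled, and how fully each sgRNA removed its receptor was not measured. No receptor agonist is named in the labels or in the methods of the screen, so the populations compare cells under culture conditions.

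Reads of the sgRNA cassette, amplified from genomic DNA, were counted, so that the reads of an sgRNA stood for the number of cells carrying it in each population. Fewer reads in high than in low marked a knockout that was rarer among strongly labelled cells. The 8 libraries held 23369720 to 31777138 reads with medians of 260 to 356 reads per sgRNA, and the 148 receptor sgRNAs averaged 443 scaled reads per library. Mean scaled reads per sgRNA ran from 188 for *GPR12* to 830 for *GPR3*, and the least covered receptor sgRNA had 27.7 scaled reads in its lowest library. Scaled reads are counts brought to the mean library total. Gene expression, protein loss and editing were not measured in these libraries, so that neither the identity of the line nor the presence of a receptor in it could be checked against markers.

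Knockouts of *GPR3* and *ADORA2B* were rarer in the high population than in the low, and these were the 2 receptors of 37 that passed the test in this comparison. *GPR3* encodes an orphan receptor that raises cAMP constitutively, and *ADORA2B* encodes the adenosine A2B receptor, the main adenosine receptor of the intestinal epithelium. No receptor knockout was more frequent in the high population at this threshold. The test was limma on the log2 fold changes of both screens, averaged over the 4 sgRNAs of a gene, with Benjamini-Hochberg adjustment over all 18659 entries of the library and a threshold of 0.05. Among all genes, 508 of 18638 (2.73%) were lower and 979 (5.25%) were higher in the high population, so that 2 lower receptors of 37 (5.41%) and 0 higher are to be read against these shares. At an unadjusted p under 0.05 stood 5 receptors (13.5%), against 17.6% of all genes. The median log2 fold change of the receptors was −0.05, against −0.01 for all genes, and 15 receptors (40.5%) were below 0 in both screens, against 32.2% of all genes.

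**Figure D1:**
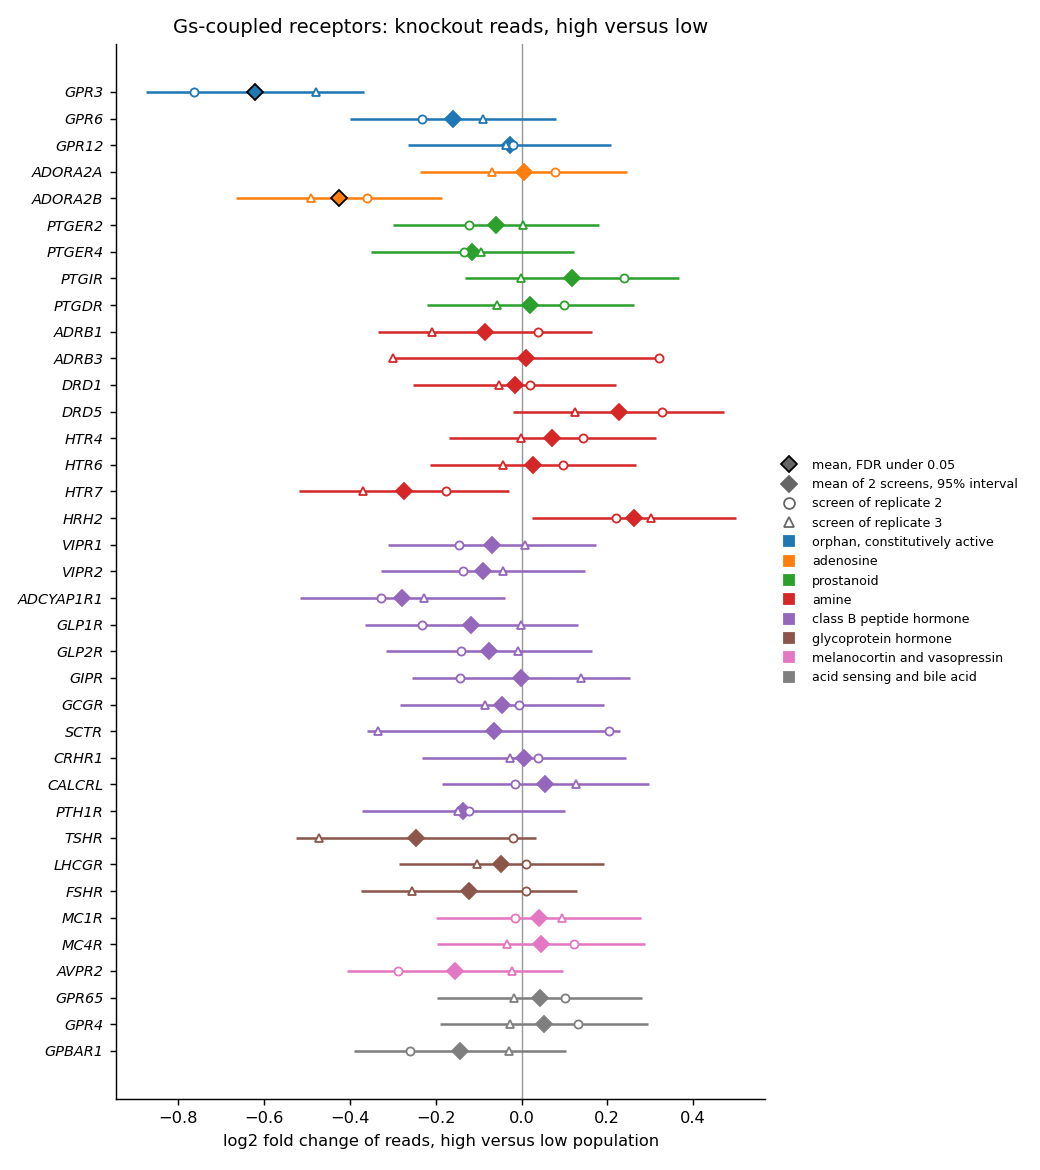
Log2 fold change of knockout reads, high versus low population, for the 37 Gs-coupled receptors, coloured by ligand class. Diamonds are means of the 2 screens with 95% intervals from limma, open circles and triangles are the screens labelled replicates 2 and 3, and black outlines mark an adjusted p under 0.05. *GPR3* at −0.62 and *ADORA2B* at −0.43 are the 2 outlined receptors, and the means of the other 35 lie between −0.28 and 0.26.

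*GPR3* (ENSG00000181773) lies at chr1:27392622-27395814 (GRCh38, plus strand) and has its coding sequence in 1 exon. Summed over its 4 sgRNAs, it had 2689 and 2922 scaled reads in the high population of replicates 2 and 3, against 4345 and 4117 in the low population. The medium population had 3076 and 3272 and T0 had 2911 and 3221 scaled reads. Both low libraries thus stood above all 6 others, and the high libraries overlapped with T0. The log2 fold change of high versus low was −0.76 in replicate 2 and −0.48 in replicate 3, with a mean of −0.62 (SE 0.116, 95% interval −0.88 to −0.37, limma adjusted p = 0.00437, n = 2 screens), which is 1.54-fold more reads in the low population.

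All 4 sgRNAs against *GPR3* had fewer reads in the high population in both screens. sgRNA 4 had 348 and 365 scaled reads in the high and 695 and 621 in the low population, a mean log2 fold change of −0.88 (edgeR adjusted p = 1.97e-06). sgRNA 1, with the most reads, had 1572 and 1620 in the high and 2377 and 2327 in the low population, a mean of −0.56 (edgeR adjusted p = 3.8e-08). sgRNA 3 had 341 and 447 in the high and 610 and 620 in the low population, a mean of −0.66 (edgeR adjusted p = 0.00182). These 3 sgRNAs passed the test singly. sgRNA 2 had 429 and 491 in the high and 663 and 548 in the low population, a mean of −0.39, and did not pass the test (edgeR adjusted p = 0.145). For each of the 4, the high and low libraries did not overlap. The share of all sgRNAs without such overlap was not counted, and *GPR3* was picked by this same comparison. The sgRNAs differed in where the gap to medium lay. sgRNA 1 had 1629 and 1664 reads in the medium population, close to its high libraries, whereas sgRNA 4 had 547 and 521, about midway between its high and low libraries.

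*ADORA2B* (ENSG00000170425) lies at chr17:15945130-15975746 (GRCh38, plus strand), with 2 coding exons. It had 891 and 907 scaled reads in the high population, against 1171 and 1280 in the low population. The medium population had 1071 and 1038 scaled reads, between the high and the low libraries, and T0 had 1157 and 977. The log2 fold changes of high versus low were −0.36 in replicate 2 and −0.49 in replicate 3, with a mean of −0.43 (SE 0.109, 95% interval −0.67 to −0.19, limma adjusted p = 0.0339, n = 2 screens), 1.34-fold more reads in the low population. Here too all 4 sgRNAs were lower in the high population in both screens.

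Of the sgRNAs against *ADORA2B*, sgRNA 1 passed the test on its own, with 295 and 243 scaled reads in the high and 400 and 441 in the low population (mean log2 fold change −0.65, edgeR adjusted p = 0.0227), a call that neither DESeq2 nor edgeR with no replicate block made. The other 3 had means of −0.37, −0.46 and −0.22 and did not pass (edgeR adjusted p of 0.25, 0.687 and 0.852). sgRNA 3, with 82 and 79 reads in the high and 107 and 116 in the low population, was the least covered of the 4. *GPR3* and *ADORA2B* were the only receptors of 37 whose 4 sgRNAs were all lower in both screens, which held for 593 of 18638 genes (3.18%). No receptor had all 4 higher in both.

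**Figure D2:**
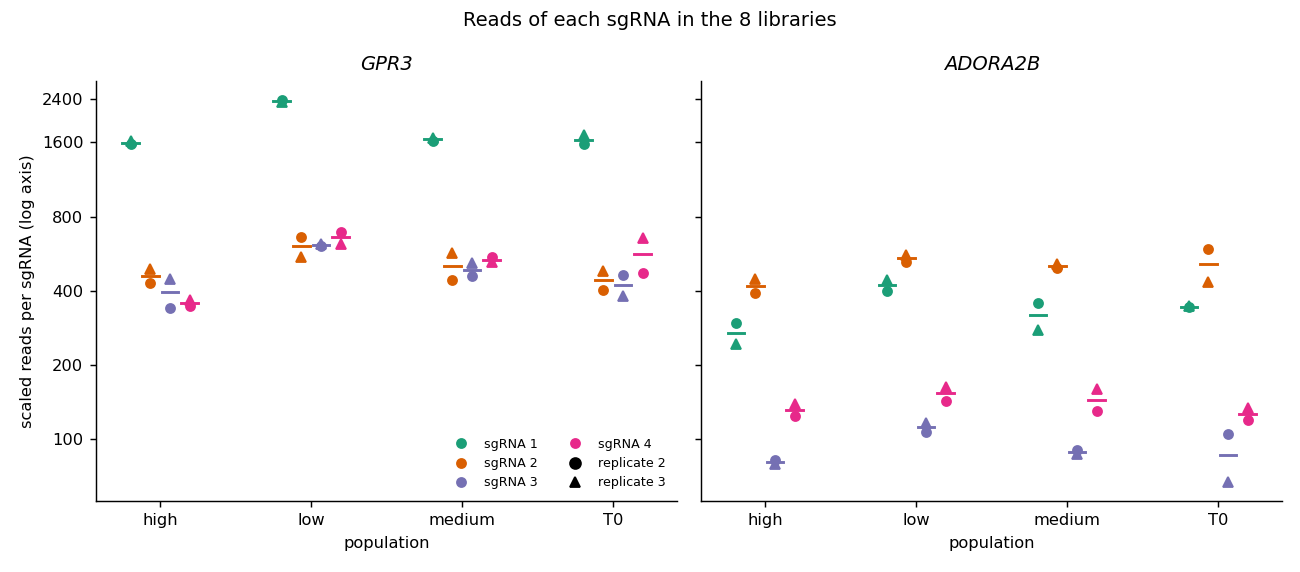
Scaled reads (log axis) of each of the 4 sgRNAs against *GPR3* (left) and *ADORA2B* (right) in the high, low, medium and T0 libraries. Circles and triangles are replicates 2 and 3 and horizontal bars their means. For *GPR3* sgRNA 1, the low libraries at 2377 and 2327 lie above all others, which range from 1572 to 1708.

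Both calls changed when single libraries were left out. In fits to 5 libraries, where a population left with 1 library was assumed to vary like the others, no receptor passed without replicate 2 of high, where *GPR3* was at −0.54 and *ADORA2B* at −0.45 (limma adjusted p = 0.0935 and 0.154), nor without replicate 2 of low, where they were at −0.49 and −0.50 (limma adjusted p = 0.149 and 0.145). Without replicate 3 of high, or without replicate 3 of low, *GPR3* passed (limma adjusted p = 0.0269 and 0.0393) and *ADORA2B* did not (limma adjusted p = 0.212 and 0.311). The 278 sgRNAs without a genomic target had a mean log2 fold change of −0.11. When each screen was centred on them, which moved the median of all genes to 0.10 and the calls over all genes to 281 lower and 1273 higher, *GPR3* passed at −0.51 (limma adjusted p = 0.0289) and *ADORA2B* did not at −0.31 (limma adjusted p = 0.128).

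The closest relatives of *GPR3* among the orphan receptors, *GPR6* and *GPR12*, did not pass. *GPR6* had 2039 and 2269 scaled reads in the high and 2151 and 2469 in the low population, a mean log2 fold change of −0.16 (95% interval −0.40 to 0.08, limma adjusted p = 0.534). *GPR12* had 731 and 739 in the high and 759 and 769 in the low population, a mean of −0.03 (95% interval −0.26 to 0.21, limma adjusted p = 0.937). The interval of *GPR12* lay above that of *GPR3*, and the interval of *GPR6* overlapped it in part. All 3 were below 0 in both screens, as were 32.2% of all genes, and the differences between them were not tested. *GPR12*, at −0.02 and −0.04 in the screens, lay above the mean of −0.11 of the sgRNAs without a target. *ADORA2A*, the gene of the other Gs-coupled adenosine receptor, had 2184 and 2133 scaled reads in the high and 2094 and 2270 in the low population, so that the groups overlapped and the mean was 0.00 (95% interval −0.24 to 0.25). Its difference from *ADORA2B* was not tested.

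Of the 3 receptors with the next smallest p after *GPR3* and *ADORA2B*, 2 were lower in the high population, *ADCYAP1R1* and *HTR7*, and *HRH2* was higher, none of them past the threshold. *ADCYAP1R1*, at chr7:31052308-31111474, encodes the PAC1 receptor for the neuropeptide PACAP. It had 1226 and 1120 scaled reads in the high, 1301 and 1291 in the low, 1220 and 1199 in the medium population and 1295 and 1328 at T0. Its mean log2 fold change was −0.28 (SE 0.109, limma adjusted p = 0.192), with all 4 sgRNAs below 0 on average, of which sgRNA 2 was the lowest at −0.72 with 45 and 66 reads in the high and 103 and 81 in the low population.

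*HTR7*, at chr10:90740823-90858039, encodes a serotonin receptor. It had 1341 and 1366 scaled reads in the high, 1364 and 1373 in the low, 1442 and 1493 in the medium population and 1360 and 1262 at T0, so that the sums hardly differed between high and low. Its mean over sgRNAs was nevertheless −0.27 (SE 0.111, limma adjusted p = 0.216), since the sparsely covered sgRNA 1 had 45 and 37 reads in the high and 105 and 101 in the low population against 29 and 28 in the medium population (mean of high versus low −1.31, edgeR adjusted p = 0.102), while the other 3 had means of 0.01, 0.24 and −0.03. With the median over sgRNAs in place of the mean, *HTR7* was at −0.05. *HRH2*, at chr5:175658030-175710756, encodes the histamine H2 receptor. It had 1710 and 1650 scaled reads in the high, 1622 and 1588 in the low, 1767 and 1419 in the medium population and 1560 and 1485 at T0. Its mean was 0.26 (SE 0.108, limma adjusted p = 0.226). As for *HTR7*, a sparsely covered sgRNA stood apart, here sgRNA 2 with 71 and 87 reads in the high and 43 and 46 in the low population (mean 0.80), and the median over sgRNAs was 0.15.

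The 4 prostanoid receptors had no calls. *PTGER2* and *PTGER4*, which encode the prostaglandin E receptors EP2 and EP4, had means of −0.06 and −0.11, and the 4 sgRNAs against *PTGER4* lay close together between −0.18 and −0.04. The prostacyclin receptor gene *PTGIR* was at 0.12 and the prostaglandin D receptor gene *PTGDR* at 0.02. The screens differed in sign for *PTGER2*, *PTGIR* and *PTGDR*.

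The other 6 amine receptors had no calls either. *DRD5*, which encodes a dopamine receptor, had the highest mean of them at 0.23 (limma adjusted p = 0.334), and all 4 of its sgRNAs were above 0 on average. *DRD1*, for the other Gs-coupled dopamine receptor, was at −0.02. The β-adrenergic receptor genes *ADRB1* and *ADRB3* were at −0.08 and 0.01. *ADRB3* had the largest gap between the screens of all 37 receptors, at 0.32 in replicate 2 and −0.30 in replicate 3. The serotonin receptor genes *HTR4* and *HTR6* were at 0.07 and 0.03.

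Among the 11 class B peptide hormone receptors, with *ADCYAP1R1* the lowest, the other 10 lay between −0.14 and 0.06. *VIPR1* and *VIPR2*, for the receptors of vasoactive intestinal peptide, were at −0.07 and −0.09, and the parathyroid hormone receptor gene *PTH1R* was at −0.14. The genes of the proglucagon-peptide and incretin receptors were at −0.12 (*GLP1R*), −0.07 (*GLP2R*), −0.05 (*GCGR*, glucagon) and 0.00 (*GIPR*). The secretin receptor gene *SCTR* was at −0.07 with opposite signs in the screens, the corticotropin-releasing hormone receptor gene *CRHR1* at 0.01, and *CALCRL*, which encodes the subunit that the calcitonin gene-related peptide and adrenomedullin receptors share, at 0.06. The class median was −0.07, above the mean of −0.11 of the sgRNAs without a target. Below 0 in both screens were 6 of 11 (54.5%, against 32.2% of all genes). Above 0 in both were 0, against 29.3% of all genes. None of the 11 intervals reached −0.62, the mean of *GPR3*.

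The glycoprotein hormone receptor genes had means of −0.25 (*TSHR*, thyrotropin), −0.12 (*FSHR*, follitropin) and −0.05 (*LHCGR*, lutropin). *TSHR* differed widely between the screens, at −0.02 in replicate 2 and −0.47 in replicate 3 (limma adjusted p = 0.362). The melanocortin receptor genes *MC1R* and *MC4R* were at 0.04 and 0.05, and the vasopressin V2 receptor gene *AVPR2* was at −0.16. The proton sensors *GPR65* and *GPR4* were at 0.04 and 0.05. *GPBAR1*, for the membrane bile acid receptor TGR5, was at −0.14 with all 4 sgRNAs below 0 on average.

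The size of effect that these values leave possible can be read from the intervals. For 32 of the 35 receptors that did not pass, the 95% interval lay wholly between −0.5 and 0.5, and for the other 3 its lower bound was at most slightly below, down to −0.52. Standard errors ran from 0.108 to 0.142. The smallest change among the 508 genes called lower was 0.39 in size. This is a bound on estimates with 2 screens and not on true effects, and receptors with larger standard errors needed larger estimates to pass. The 11 receptors with 1 coding exon had a median log2 fold change of −0.02, and the 26 with more had −0.06.

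At the level of single sgRNAs, 5 of the 148 were lower in the high population than in the low and 0 were higher by edgeR's quasi-likelihood test, in which 1154 of 74312 sgRNAs against genes (1.55%) were lower and 2192 (2.95%) were higher. These were *GPR3* sgRNAs 1, 3 and 4, *ADORA2B* sgRNA 1 and *VIPR1* sgRNA 2. An unadjusted p under 0.05 was found for 16 receptor sgRNAs (10.8%), against 12.9% of sgRNAs against genes. *VIPR1* sgRNA 2 had 1256 and 1601 scaled reads in the high and 1763 and 1729 in the low population (mean log2 fold change −0.30, edgeR adjusted p = 0.0457), and was also not called by DESeq2 or by edgeR with no replicate block. The 2 screens differed there, at −0.49 and −0.11, and the other 3 sgRNAs against *VIPR1* had means of 0.14, 0.09 and −0.21, so that the gene did not pass. Below 0 in both screens were 51 receptor sgRNAs (34.5%), against 29.0% of all sgRNAs against genes and 43.5% of the 278 sgRNAs without a target, of which 275 were tested and 3 were lower.

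**Figure D3:**
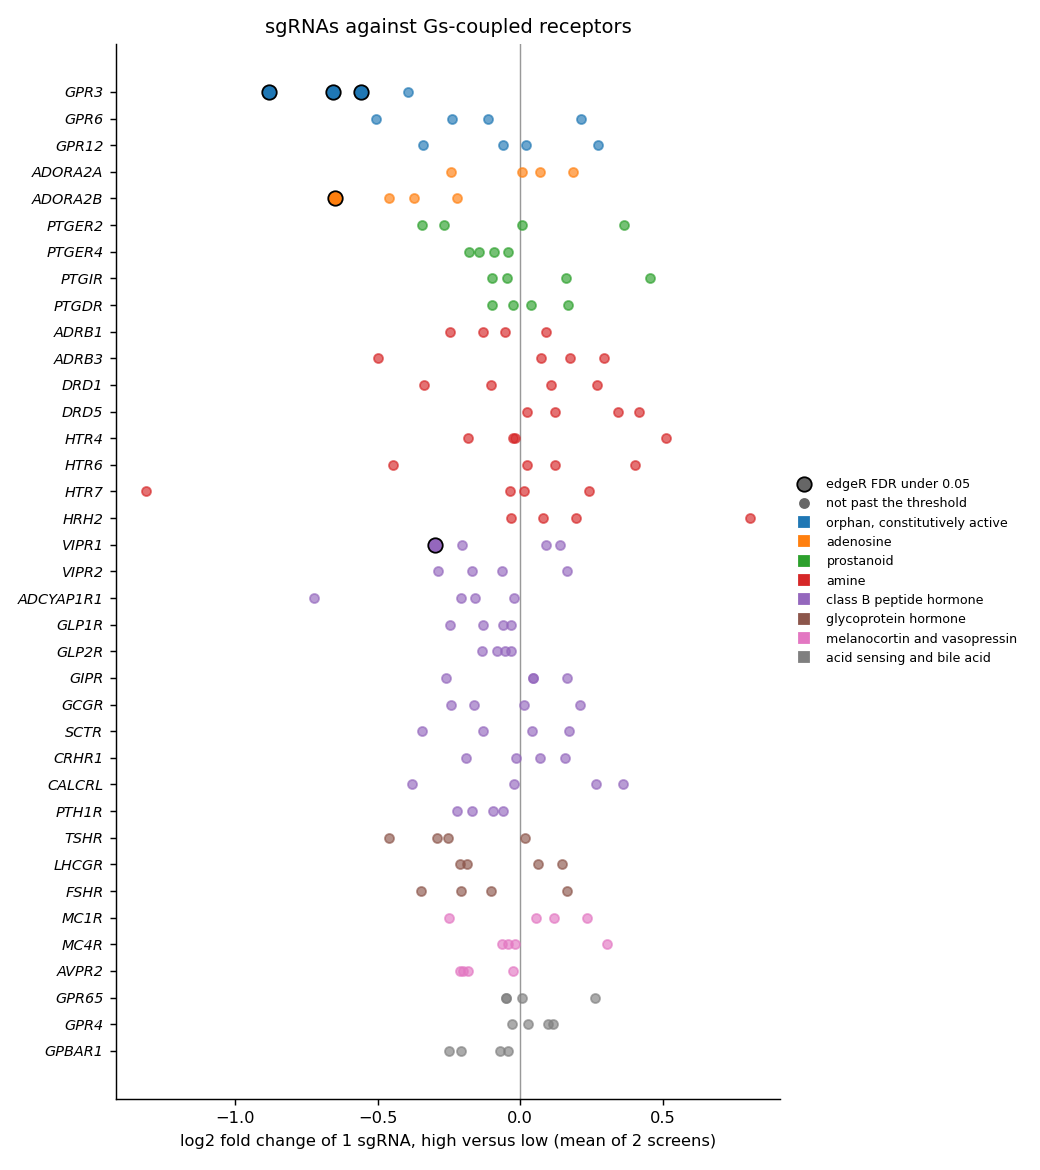
Log2 fold change of each of the 148 receptor sgRNAs, high versus low population, as the mean of the 2 screens, with receptors coloured by ligand class. Large black-outlined points are the 5 sgRNAs with an edgeR adjusted p under 0.05, which belong to *GPR3* (3), *ADORA2B* (1) and *VIPR1* (1). The lowest point, *HTR7* sgRNA 1 at −1.31, did not pass.

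The side of the medium population on which the change lay was asked by setting the low and the high population against it. No receptor passed in low versus medium, where 287 of 18638 genes (1.54%) were lower and 219 (1.18%) higher, nor in high versus medium, where 18 (0.0966%) were lower and 316 (1.70%) higher (limma, threshold 0.05). At an unadjusted p under 0.05 stood 4 receptors in low versus medium (10.8%, against 11.1% of all genes) and 3 in high versus medium (8.11%, against 10.0% of all genes). *GPR3* was at 0.35 in low versus medium (SE 0.111, limma adjusted p = 0.211) and at −0.27 in high versus medium (SE 0.0952, limma adjusted p = 0.43). *ADORA2B* was at 0.23 and −0.19 (limma adjusted p = 0.488 and 0.588). For both receptors, both screens had the same sign on each side. High versus low, by which they were picked, is the difference between these comparisons, so that the shared sign adds no separate support. On reads summed per gene, edgeR called *GPR3* higher in low versus medium.

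*CALCRL* had another pattern, with fewer reads in both outer populations than in medium. Its reads were 1016 and 978 in the high, 1011 and 1043 in the low, 1164 and 1238 in the medium population and 964 and 1064 at T0, so that both medium libraries stood above all 6 others. The log2 fold change was −0.38 in low versus medium and −0.32 in high versus medium (limma adjusted p = 0.218 and 0.375), neither past the threshold. Both comparisons share the medium libraries, so that they are not separate observations. *CALCRL* was chosen after its values were seen, and how many genes share the pattern was not counted. Of its sgRNAs, sgRNA 4 had 98 and 96 reads in the high, 113 and 57 in the low and 124 and 174 in the medium population, so that its gap lay mostly in replicate 3.

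Weighting the reads of each population by its gate (25%, 25% and 50%) gave the estimated share of each receptor's reads per gate, which is a description without a test. *GPR3* had 20.4% and 21.5% of its weighted reads in the high and 33.0% and 30.3% in the low gate. *ADORA2B* had 21.2% and 21.3% in the high and 27.9% and 30.03% in the low gate. The other 35 receptors had 21.6% to 27.2% in the high and 20.8% to 28.7% in the low gate over both screens. *GPR3* lay outside that range on both axes in both screens. *ADORA2B* did so in the high gate in both screens and in the low gate in replicate 3. The shares were formed from the same high and low reads by which both receptors were called, so that these positions are no separate evidence.

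**Figure D4:**
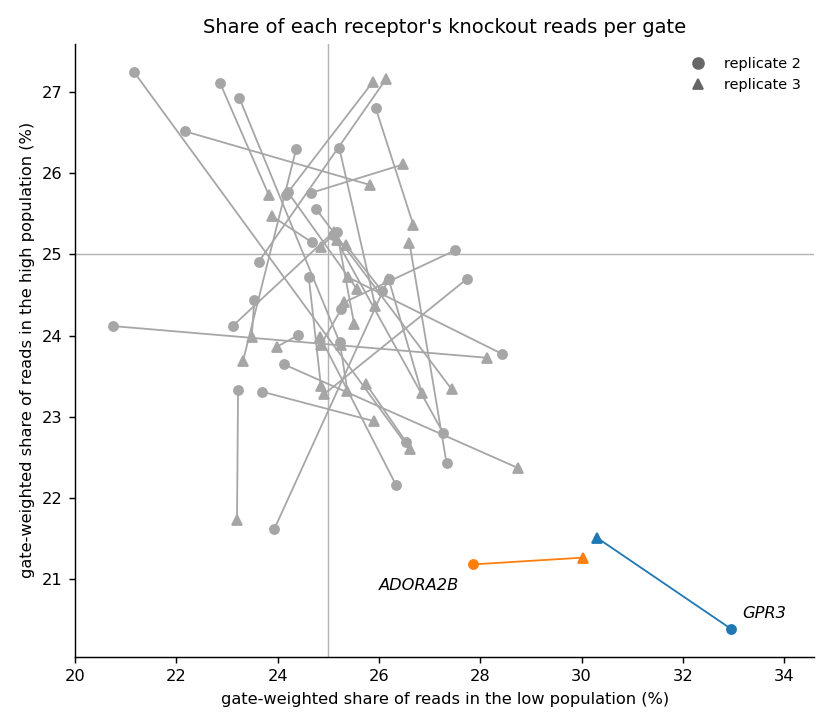
Gate-weighted share of each receptor's reads in the high population (y axis, %) against that in the low population (x axis, %), with circles for replicate 2, triangles for replicate 3 and a line joining the screens of a receptor. Grey lines mark 25%, the share of the gates. *GPR3* (blue) and *ADORA2B* (orange) lie at the lower right, with 20.4% to 21.5% in the high gate.

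Whether loss of a receptor changed the abundance of cells was asked by comparing the gate-weighted sorted pool with T0. No receptor passed, with 1556 of 18638 genes (8.35%) lower and 473 (2.54%) higher (limma, threshold 0.05). An unadjusted p under 0.05 was found for 6 receptors (16.2%), against 22.9% of all genes. The receptors lay between −0.16 (*GIPR*) and 0.27 (*VIPR2*), with a median of 0.08, against 0.04 for all genes. *VIPR2* was the closest to the threshold, at 0.28 and 0.27 in the screens (SE 0.0946, limma adjusted p = 0.0687). *GPR3* was at 0.13 (SE 0.0949, limma adjusted p = 0.438) and *ADORA2B* at 0.06 (SE 0.0984, limma adjusted p = 0.78). The sgRNAs without a target were at 0.24 in this comparison. Centred on them, all genes shifted to a median of −0.20, with 6232 of 18638 lower and 24 higher. Of the 37 receptors, 9 were then called lower, a smaller share than among all genes. These were *PTGIR*, *HTR4*, *HTR6*, *VIPR1*, *ADCYAP1R1*, *GLP1R*, *GLP2R*, *GIPR* and *MC1R*.

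The other genes of the pathway were taken from 4 lists, which were chosen with earlier results of these data known. Downstream of the receptors, a list of 16 genes held those that make cAMP and the PKA catalytic subunits. In high versus low, 3 of them (18.8%) were lower and 0 higher, against 2.73% and 5.25% of all genes. These were *GNAS* at −1.31, the adenylyl cyclase gene *ADCY7* at −1.06 and the catalytic subunit gene *PRKACA* at −1.60 (limma adjusted p = 7e-06, 0.000264 and 1.47e-06), all larger in size than *GPR3* at −0.62. The same 3 passed as higher in low versus medium. The other 13 genes of this list, among them *GNAL*, which encodes a Gs relative, and the 8 further membrane adenylyl cyclases, did not pass.

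*GRK2* and *ARRB2*, genes that end receptor signalling, were higher in the high population. Of 13 genes for receptor partners and desensitisation, these 2 (15.4%) passed as higher in high versus low and 0 as lower. Among all genes, 5.25% were higher and 2.73% lower. *GRK2*, which encodes the receptor kinase that phosphorylates active β-adrenergic and many other receptors, was at 0.92 in both screens (SE 0.108, limma adjusted p = 0.000122). *ARRB2*, which encodes β-arrestin 2, was at 0.76 and 0.30 (mean 0.53, SE 0.127, limma adjusted p = 0.0225). All 4 sgRNAs against *GRK2* were higher in the high population in both screens. sgRNA 4 had 712 and 570 scaled reads in the high and 409 and 344 in the low population (edgeR adjusted p = 0.000161). Of those against *ARRB2*, sgRNA 4 had 802 and 819 in the high and 581 and 488 in the low population (edgeR adjusted p = 0.000661). sgRNAs 2 and 3 had means of 0.30 and 0.35 and did not pass (edgeR adjusted p = 0.182 and 0.715). sgRNA 1 had only 1 to 13 reads in any library and was at 2.10 in replicate 2, which raised the value of *ARRB2* in that screen. Without sgRNAs under a mean of 50 reads, *ARRB2* was at 0.42 and passed (limma adjusted p = 0.014).

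The remaining members of that list, the kinases *GRK3*, *GRK4*, *GRK5* and *GRK6*, β-arrestin 1 (*ARRB1*), the receptor activity-modifying proteins *RAMP1*, *RAMP2* and *RAMP3*, the melanocortin receptor accessory proteins *MRAP* and *MRAP2*, and the scaffold *NHERF1*, did not pass. The list median was 0.11, and 7 of 13 were above 0 in both screens (53.8%, against 29.3% of all genes). *GRK2* and *ARRB2* are among these 7, and the list was chosen with earlier results known, so that the share is a description only. In low versus medium, *ARRB2* was lower at −0.52 (limma adjusted p = 0.0467), and *GRK2* was at −0.34 (limma adjusted p = 0.205). In high versus medium, *GRK2* was at 0.58 (limma adjusted p = 0.0597).

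A further list held 23 genes for PKA regulatory subunits, PKA inhibitors and cAMP phosphodiesterases. In high versus low, 2 (8.70%) were higher and 2 (8.70%) lower, against 5.25% and 2.73% of all genes. Higher were the regulatory subunit gene *PRKAR1A* at 1.16 and the cAMP phosphodiesterase gene *PDE4A* at 0.52 (limma adjusted p = 4.4e-05 and 0.019). Lower were the regulatory subunit gene *PRKAR2A* at −0.62 and the PKA inhibitor gene *PKIG* at −0.66 (limma adjusted p = 0.0323 and 0.00193). In the fit to 6 libraries with the replicate block, *PDE4A* and *PRKAR2A* did not pass (limma adjusted p = 0.0683 and 0.11), nor did *PRKAR2A* when centred on sgRNAs without a target (limma adjusted p = 0.131). The screens differed for *PRKAR2A*, whose sgRNA 4, with 5 to 32 scaled reads in the high and low libraries, was at 0.81 and −2.51, while the other 3 were below 0 in both screens. A list of 16 genes was made for the supply and clearance of adenosine and prostaglandins. It also held the adenosine receptor genes *ADORA1* and *ADORA3*, which were counted among the Gi-coupled receptors as well. Of the 16, 0 passed in either direction, and 2 had an unadjusted p under 0.05, *PTGIS*, for prostacyclin synthase, at −0.37 (limma adjusted p = 0.0719) and *ADA*. *ADA*, which encodes the adenosine-degrading deaminase, was at −0.29 (limma adjusted p = 0.212), and *NT5E*, for the ectonucleotidase that makes adenosine, at −0.07 (limma adjusted p = 0.846).

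**Figure D5:**
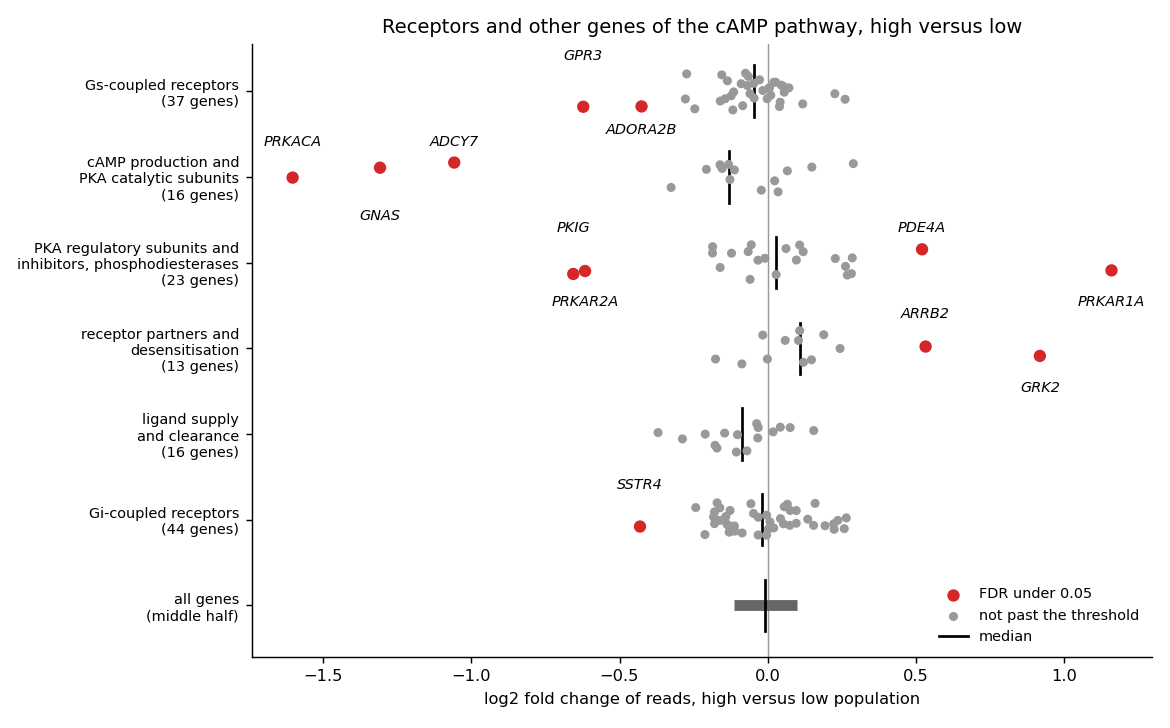
Log2 fold change, high versus low population, of the 37 receptors, 4 lists of other pathway genes and 44 Gi-coupled receptors, with red points for a limma adjusted p under 0.05, grey points for the rest and black lines for medians. *ADORA1* and *ADORA3* are shown both in the supply and clearance list and among the Gi-coupled receptors. The bar for all genes spans the lower to the upper quartile, −0.11 to 0.10. *GPR3* and *ADORA2B* lie on the same side as *GNAS*, *ADCY7* and *PRKACA*, as do *PRKAR2A*, *PKIG* and *SSTR4*, and *GRK2* and *ARRB2* lie on the side of *PRKAR1A* and *PDE4A*.

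For comparison, Gi-coupled receptors, which act against adenylyl cyclase, and olfactory receptors, selected by the form of their symbols alone, were counted in the same way. Of 44 Gi-coupled receptors, 1 (2.27%) was lower and 0 were higher in high versus low, against 2.73% and 5.25% of all genes. The lower one was the somatostatin receptor gene *SSTR4* at −0.43 (limma adjusted p = 0.0293, and 0.113 when centred on sgRNAs without a target). The median of the Gi-coupled receptors was −0.02. Of 339 olfactory receptors, 1 (0.295%) was lower and 2 (0.590%) were higher, with a median of −0.02. The share of genes with an unadjusted p under 0.05 was 13.5% for the Gs-coupled receptors, 6.82% for the Gi-coupled and 8.26% for the olfactory receptors, all below the 17.6% of all genes. No difference between the lists was tested.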

How the data were processed

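Raw counts of each sgRNA in each lane, obtained by the authors with MAGeCK, were the deposited values. No genome build or aligner is stated for them. The table held 74987 sgRNAs in 18659 entries, 18638 of them genes. Its 4 columns that match no sample were not used. Between the 4 lanes of 1 library, counts varied as sampling alone gives (chi-square divided by degrees of freedom, 1.02 to 1.03; between screens, 5.76 to 7.34), and lanes were summed into 8 libraries, each 1 sample. Intervals cover counting and screen-to-screen error only as far as 2 screens show it, and PCR reads are not independent molecules.

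Scaling brought all libraries to the same total. After adding 1 read, log2 differences within each screen were averaged per gene. Whether their mean over 2 screens differed from 0 was tested in limma 3.58.1 (R 4.3.3) with Benjamini-Hochberg adjustment over all entries. Prior degrees of freedom were 10.2 for high versus low, so that p-values rested mostly on a spread shared by all genes. The sgRNA test was the quasi-likelihood one of edgeR 4.0.16 (TMM, low-count filter, 6 sorted libraries, screen as block), and DESeq2 1.42.0 was an alternative. The study's methods name limma on averaged fold changes at this threshold but neither the scaling nor the added read, and its removal of essential genes was not applied. The screens are stated to be independent, which makes the replicate number a block; deviations of same-numbered sorted libraries from their population means correlated at 0.12 to 0.16 over genes, and those with T0 at 0.07 to 0.09. The sorted pool was the reads of high, low and medium weighted by 0.25, 0.25 and 0.5. The tests were tried on simulated data.

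Full values are given for receptors past the threshold in any gene comparison and for the 3 others with the smallest p in high versus low. *CALCRL*, *GPR6*, *GPR12*, *ADORA2A*, *VIPR1* and the pathway genes with values were chosen after their values were seen. The members and lists were chosen with earlier results of these data known, so that no list was tested as such. Gene names and GRCh38 coordinates come from GENCODE release 44, which named 18585 of the 18638 identifiers. Sequences of the sgRNAs were not used here. Alternatives are listed in the closing section. Python 3.11.15 was used to prepare counts and figures.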

Additional observations from a re-analysis of the deposited data

How the results depend on the processing

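In high versus low, 2 receptors were called under 8 of the 13 alternatives that could change the comparison, each time *GPR3* and *ADORA2B*: a pseudocount of 5 reads, TMM sizes, median-of-ratios sizes, sgRNAs with at least 50 reads, the median over sgRNAs, edgeR on summed reads, 6 libraries with the replicate block, and 6 libraries with no replicate block. Leaving out a library of the population outside a comparison could not change it and is not counted. Centring on sgRNAs without a target gave 1. Leaving out single high or low libraries put *GPR3* between −0.75 and −0.49 and *ADORA2B* between −0.50 and −0.35. Each of these fits lost at least *ADORA2B*. In low versus medium, edgeR on summed reads gave 1 and the other alternatives 0, and leaving out single libraries gave 0. In high versus medium all 13 gave 0. In the sorted pool versus T0, centring on sgRNAs without a target gave 9 lower, sgRNAs with at least 50 reads gave 1 higher (*VIPR2*) and the other 8 alternatives gave 0. For receptor sgRNAs, with 5 calls, DESeq2 gave 3 and edgeR with no replicate block gave 3, in both cases *GPR3* sgRNAs 1, 3 and 4. Leaving out single libraries gave 2 to 5, with 2 without the high library of replicate 2 and 3 without the low library of replicate 2. The cause of these changes was not tested.

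No single receptor or pathway gene that passed changed sign. Besides the losses of *GPR3* and *ADORA2B* with single libraries left out, which are given in the report, called genes that no longer passed were *ADORA2B*, *PRKAR2A* and *SSTR4* when centred on sgRNAs without a target (limma adjusted p = 0.128, 0.131 and 0.113) and *PRKAR2A* and *PDE4A* in the fit to 6 libraries with the replicate block (limma adjusted p = 0.11 and 0.0683). The alternatives for pathway genes were added after seeing the data. Over all genes, edgeR on summed reads called 932 lower and 1275 higher in high versus low, against 508 and 979, and log2-weighted gates called 1508 lower and 174 higher in the sorted pool, against 1556 and 473. In low versus medium, edgeR on summed reads called 506 lower and 468 higher, the median over sgRNAs 487 and 337 and the fit with no replicate block 133 and 125, against 287 and 219. In high versus medium, centring gave 51 and 868, the median over sgRNAs 71 and 602 and edgeR 128 and 662, against 18 and 316. With no replicate block, the sorted pool gave 1256 and 106. With 2 screens and receptor sgRNAs of 27.7 scaled reads or more, no gene with a change under 0.39 in size was called lower in high versus low. Protein loss, editing and receptor expression were not measured.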
